A study of Homo sapiens with 17 samples.

Results

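Naive pluripotency genes are described here as 10 genes of the 20037 protein-coding genes in the RefSeq table for GRCh38. They were chosen by name and by no measured value, though with earlier results of these data known. The transcription factors are KLF4, KLF5, KLF17, ESRRB, TFCP2L1 and TBX3. The others are the maternal-effect factor DPPA3, the RNA-binding protein DPPA5, the DNA methylation cofactor DNMT3L and the surface protein SUSD2. For each gene, all peak summits between 20 kb before and 20 kb after it were collected from 17 lists. The lists came from CUT&Tag, in which an antibody on chromatin guides the transposase Tn5 to tag nearby DNA for sequencing. The cells were H1, an established human embryonic stem cell line, grown in mTeSR1 on Matrigel. The study compared cells given lentivirus for 1 of 2 shRNAs against HNRNPU, a nuclear RNA-binding protein, with cells given an shRNA against luciferase (shLUC), both under puromycin selection. H3K4me1, a histone mark of enhancers whether active or not, and H3K27ac, a mark of active enhancers and promoters, were each profiled in 2 shHNRNPU#1, 2 shHNRNPU#2 and 2 shLUC libraries. HNRNPU was profiled in 2 libraries of untransfected cells, and POLIIS2P, an antibody name that the labels do not spell out, in 1 shHNRNPU#1 and 2 shLUC libraries. The labels do not state clones or pooling, and where repeats were not separate cultures, p-values measure only technical spread.

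Naive pluripotent cells resemble the epiblast of the embryo before implantation, whereas H1 cells in this medium are in the primed state, which resembles the epiblast after implantation. In naive cells a network of transcription factors that includes KLF4, KLF17, TFCP2L1 and TBX3 keeps genes such as DPPA3, DPPA5, DNMT3L and SUSD2 active, and many of these are silenced on the way to the primed state. A silenced gene can keep H3K4me1 at its enhancers without H3K27ac, and such elements are called primed or poised.

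The titles of the 4 shLUC histone samples gave the opposite antibody to their deposited lists, both in the list names and in the peak names. The lists were followed. By these names, the shLUC H3K4me1 lists overlapped shHNRNPU H3K4me1 lists at 68.2% to 73.5% of their strongest summits and H3K27ac lists at 18.2% to 25.8%. The shLUC H3K27ac lists overlapped shHNRNPU H3K27ac lists at 46.4% to 55.6% and H3K4me1 lists at 20.9% to 24.3%. The antibody list in the labels names neither H3K4me1 nor POLIIS2P. H3K4me1 lists held 147145 to 214333 summits, H3K27ac lists 40487 to 90914, POLIIS2P lists 79949 to 87456, and the HNRNPU lists 34649 and 35526. Read depth is unknown. The HNRNPU gene itself had 1 to 8 summits per library, and the assays do not measure how far the knockdown went. All 10 pluripotency markers examined (POU5F1, SOX2, NANOG and others) had H3K27ac in their windows in every library. The same was true of 0 of 6 mesendoderm, 0 of 6 neuroectoderm and 1 of 6 trophoblast and amnion markers.

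The starts of the naive genes differed in base composition, and the upstream sequences of KLF5, KLF4 and DPPA3 are shown because these starts ran from 1 with summits of H3K4me1, POLIIS2P and HNRNPU in every library (KLF5 start 2) to 1 with H3K4me1 alone in 2 of 6 libraries (DPPA3). Each is the 250 bases before an annotated RefSeq start (GRCh38.p14), 5′ to 3′ on the gene's strand, and 7 of the 10 genes were in that table. The windows are chr13:73054726-73054975 (plus strand) and chr13:73058755-73059004 (plus strand) for KLF5, chr9:107489770-107490019 (minus strand) for KLF4 and chr12:7711183-7711432 (plus strand) for DPPA3. Capitals mark matches on either strand to the GC box (GGGCGG), the CCAAT box (CCAAT), the TATA box (TATAAA) or an extended nuclear receptor half-site (AAGGTCA); none of these motifs contains another.
KLF5 start 1: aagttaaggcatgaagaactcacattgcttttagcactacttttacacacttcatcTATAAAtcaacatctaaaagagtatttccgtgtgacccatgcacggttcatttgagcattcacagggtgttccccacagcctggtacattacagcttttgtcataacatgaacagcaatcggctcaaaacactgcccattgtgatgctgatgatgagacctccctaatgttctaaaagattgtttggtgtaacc
KLF5 start 2: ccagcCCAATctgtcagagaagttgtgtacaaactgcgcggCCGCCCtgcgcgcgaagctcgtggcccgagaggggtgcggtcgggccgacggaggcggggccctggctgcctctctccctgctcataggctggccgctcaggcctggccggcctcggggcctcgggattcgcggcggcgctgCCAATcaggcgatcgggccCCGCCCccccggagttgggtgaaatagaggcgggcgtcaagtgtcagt
KLF4: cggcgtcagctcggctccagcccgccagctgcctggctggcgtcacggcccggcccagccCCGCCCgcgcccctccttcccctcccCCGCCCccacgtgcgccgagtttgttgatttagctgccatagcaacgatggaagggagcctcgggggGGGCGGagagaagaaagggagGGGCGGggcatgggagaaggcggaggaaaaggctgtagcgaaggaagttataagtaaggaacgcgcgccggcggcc
DPPA3: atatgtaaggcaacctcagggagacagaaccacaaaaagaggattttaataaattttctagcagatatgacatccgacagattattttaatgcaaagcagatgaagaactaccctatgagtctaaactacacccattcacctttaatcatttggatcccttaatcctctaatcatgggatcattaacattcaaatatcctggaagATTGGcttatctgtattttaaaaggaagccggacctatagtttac

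The 2 starts of KLF5 lay 4029 bp apart and differed in nearly every respect. The first held 3 CpG dinucleotides at 40.8% GC and a TATA box, and the second 27 CpG at 70.8% GC with 2 CCAAT boxes and 2 GC boxes. The KLF4 sequence held 25 CpG at 69.2% GC and 4 GC boxes, and the DPPA3 sequence 2 CpG at 35.6% GC and 1 CCAAT box. Of the other genes in the table, TFCP2L1 held 32 CpG, DPPA5 19 and KLF17 11. The 3 starts of ESRRB held 3, 4 and 5. Over 22197 starts of protein-coding genes the median was 16 CpG and 62% GC. GC boxes were found before 53.7% of these starts, CCAAT boxes before 32.7%, TATA boxes before 9.01% and the half-site before 2.87%. No naive gene start in the table held the half-site in this window. A match is a description of the letters and not of binding.

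At their starts, most naive genes carried H3K4me1 in control cells and none carried H3K27ac in both control libraries. A summit within 1 kb of a start was counted (within 1 kb of either gene end for TBX3, DNMT3L and SUSD2, whose strand was not in the tables). H3K4me1 summits were there in both shLUC libraries at 6 of the 10 genes (KLF4, KLF5, KLF17, ESRRB, TBX3 and SUSD2), against 55.5% of all protein-coding genes. H3K27ac summits were there in both shLUC libraries at 0 of 10, against 40.9% of all genes, and 9 of the 10 had no start summit in either. By the same count, H3K27ac was at the starts of 4 of 8 core pluripotency genes, 7 of 10 primed genes and 5 of 5 genes of the LIF-STAT3 pathway. It was at 5 of 16 other naive-associated genes. It was at 0 of 6 mesendoderm, 0 of 6 neuroectoderm and 0 of 6 trophoblast and amnion markers. H3K4me1 was at the starts of 4 of 6, 3 of 6 and 4 of 6 of these markers. Starts with H3K4me1 and without H3K27ac were thus not particular to the naive genes. No test was made of these differences.

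By this count POLIIS2P and HNRNPU each marked TBX3, KLF5 and SUSD2, though at SUSD2 the strongest POLIIS2P summits lay at the lower end and the HNRNPU summits 920 and 674 bp beyond the upper end. POLIIS2P was there in both shLUC libraries, which held for 55.4% of all genes, and HNRNPU in both untransfected libraries, which held for 48.9%. At KLF5, all 3 POLIIS2P libraries and both HNRNPU libraries had their highest summits at start 2. The POLIIS2P summits lay at percentile 67.0 and 60.6 in shLUC cells and 68.0 in shHNRNPU#1 cells, where a percentile is the share of summits in the same list with an equal or lower score. The HNRNPU summits lay 107 and 114 bp before that start, at percentile 66.6 and 64.9. Base 73058898 was the summit in 4 libraries of 3 antibodies (H3K4me1, HNRNPU and POLIIS2P). H3K4me1 was found within 1 kb of start 2 in 6 of 6 libraries and of start 1 in 4 of 6.

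TBX3, a T-box transcription factor, had an HNRNPU summit 196 bp beyond its upper end in the first repeat and 154 bp beyond it in the second, at percentile 87.0 and 87.4, the highest mean HNRNPU percentile of the 10 genes. POLIIS2P lay there at percentile 85.9 and 63.1 in shLUC cells and 80.7 in shHNRNPU#1 cells. The lower end of SUSD2, a surface protein used to sort naive cells, held the strongest POLIIS2P summits of the group, 97.2 and 97.6 in shLUC cells and 97.1 in shHNRNPU#1 cells. At TFCP2L1 and DNMT3L a POLIIS2P start summit was found in 1 of 3 libraries, at KLF4 and ESRRB in 2 of 3, and at KLF17, DPPA3 and DPPA5 in none. DPPA3 had no POLIIS2P summit anywhere in its window in any library, as did 14.8% of all genes.

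**Figure D1:**
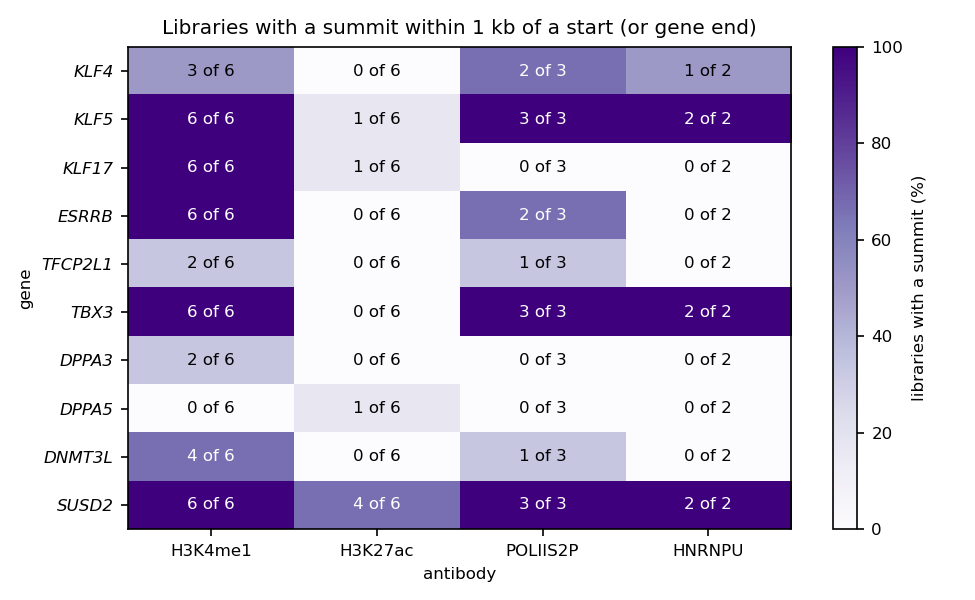
Number of libraries with a summit within 1 kb of a start (of either gene end for TBX3, DNMT3L and SUSD2), by gene (rows) and antibody (columns), over shLUC, shHNRNPU and untransfected libraries together. The shade is the percent of libraries. H3K27ac was present in at most 1 of 6 libraries except at SUSD2 (4 of 6), whereas H3K4me1 was present in 6 of 6 at KLF5, KLF17, ESRRB, TBX3 and SUSD2.

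Across the whole windows, H3K4me1 was found at every naive gene in every library, as it was at 87.5% of all genes (5.81% had none in any), and most of it had no H3K27ac beside it. H3K27ac was in the window in every library at 5 of the 10 (KLF17, ESRRB, TFCP2L1, DNMT3L and SUSD2), against 69.7% of genes, POLIIS2P at 7 (78.4%) and HNRNPU at 7 (79.8%). Summits of the 6 H3K4me1 libraries were chained into sites at 250 bp, which gave 194 sites in the 10 windows, 42 of them present in all 6 libraries. Of these 42, 2 (4.76%, Wilson 95% interval 1.32% to 15.8%, counting error only) had an H3K27ac summit within 500 bp in both shLUC libraries, and 33 (78.6%) had one in neither. ESRRB held 14 of the 42 sites and TBX3 9, so the sites are not independent and the interval does not measure the spread between genes. In the windows of all protein-coding genes, 59276 sites were present in all 6 libraries, and the shares were 23.7% and 54.9%. Without shLUC repeat 1, whose H3K27ac list was the shorter of the pair, the share with H3K27ac was 19.0% for the naive genes and 39.9% for all genes. Using shHNRNPU libraries alone for both marks, which does not depend on the disputed titles, it was 2.04% and 12.3%. POLIIS2P was within 500 bp in both shLUC libraries at 6 of the 42 sites (14.3%, against 30.9% over all genes), and HNRNPU in both repeats at 5 (11.9%, against 16.5%).

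**Figure D2:**
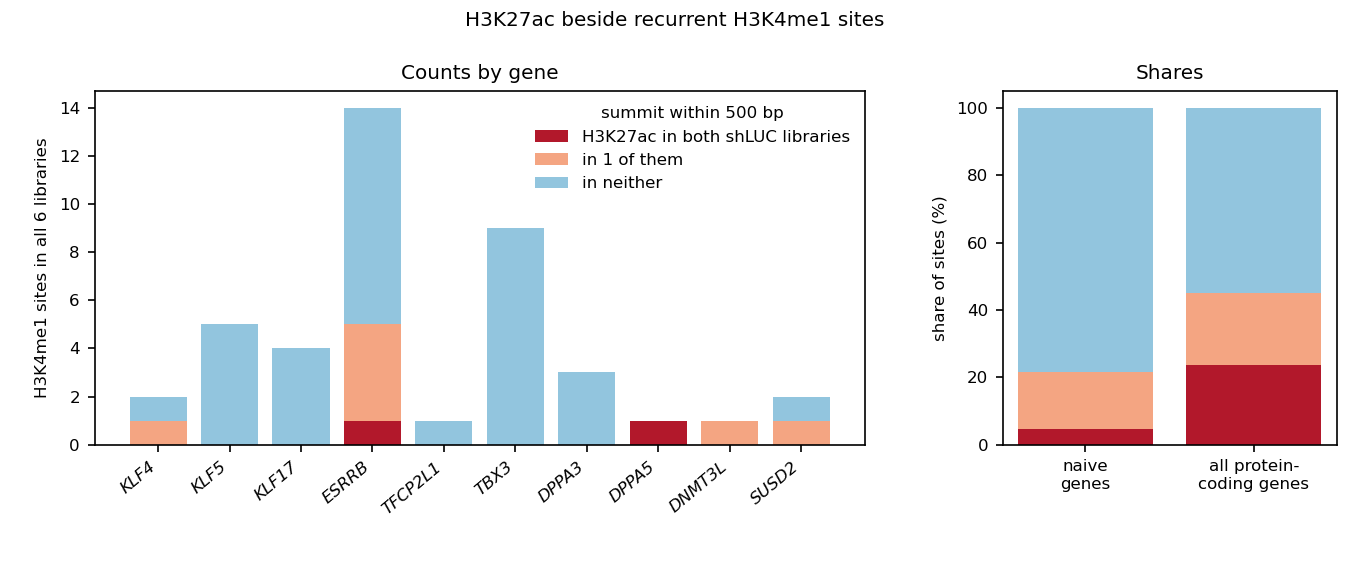
H3K4me1 sites present in all 6 libraries, split by whether an H3K27ac summit lay within 500 bp in both, 1 or neither of the shLUC libraries. Left, counts by gene; right, the share over the 10 naive genes (42 sites) and over all protein-coding genes (59276 sites). The sites of TBX3, KLF5, KLF17, DPPA3 and TFCP2L1 had H3K27ac in neither library.

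TBX3 was the clearest case. It had 9 H3K4me1 sites in all 6 libraries, or 16.7 per 100 kb of window, the densest of the 10 genes, and no H3K27ac summit in any of the 6 H3K27ac libraries, as did 7.31% of all genes. The highest H3K4me1 percentile in its window was 88.8 and 91.9 in shLUC, 90.5 and 78.1 in shHNRNPU#1 and 86.2 and 88.3 in shHNRNPU#2 libraries. The strongest of these sites on average lay 4410 bp beyond the upper end.

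KLF4, a Krüppel-like zinc finger factor, had a highest H3K4me1 percentile of 91.0 and 93.5 in shLUC, 89.6 and 78.7 in shHNRNPU#1 and 82.1 and 93.3 in shHNRNPU#2 libraries. The site behind most of these values lay 5443 bp after its start, just past the end of the gene. A single H3K27ac summit was found in its window, in shLUC repeat 2, at percentile 8.96. KLF4 had H3K4me1 in all 6 libraries at these sites and this 1 weak H3K27ac summit.

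KLF5 had 5 recurrent H3K4me1 sites, 1 of them 15065 bp before its first start (percentile 87.2 to 95.1 over the 6 libraries) and 1 inside the gene 16797 bp after the second start (87.2 to 95.3). Neither had H3K27ac within 500 bp in shLUC cells. The H3K27ac site of KLF5 found in most libraries lay 31665 bp after the second start, beyond the gene, with summits in 3 of 4 shHNRNPU libraries (percentile 77.9, 89.0 and 81.6) and in shLUC repeat 2 (45.1). In shLUC repeat 1 the summit lay at 31156 bp (64.4). An H3K4me1 site at 31643 bp was present in all 4 shHNRNPU libraries (75.4, 67.5, 71.8 and 82.5) and in neither shLUC library, of which repeat 1 had an H3K4me1 summit at 31286 bp with a percentile of 0.554. The share of such sites at all genes was not computed over all summits. Sites of the opposite kind also occurred, as at KLF17 49164 bp before its start, with summits in both shLUC libraries only. Further H3K27ac summits of KLF5 occurred in 1 library each, the nearest to a start 413 bp after start 2 in shHNRNPU#2 repeat 1 (66.3). KLF17, which marks human naive cells, had 4 recurrent H3K4me1 sites. Its highest values, 77.9 and 90.0 in shLUC libraries and 74.8 to 84.0 in shHNRNPU libraries, came in 5 of 6 libraries from summits 28942 to 29338 bp before its annotated start, inside the gene's RefSeq span. H3K27ac at KLF17 was present in every library, but at positions that changed from library to library, with a percentile from 10.2 to 76.2. The 76.2, in shLUC repeat 2, lay 87948 bp before its start, near POLIIS2P and HNRNPU summits in the neighbouring gene SLC6A9. KLF17 had 11 H3K27ac sites and 7 of them were found in 1 library only.

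ESRRB, an orphan nuclear receptor, had the longest window, 231061 bp, and the most recurrent H3K4me1 sites, 14. The strongest lay 18336 bp before its second start, with a percentile of 95.8 and 98.1 in shLUC, 87.7 and 97.6 in shHNRNPU#1 and 96.7 and 98.0 in shHNRNPU#2 libraries. POLIIS2P was at the same place in all 3 libraries and HNRNPU within 500 bp in both repeats, though the HNRNPU summits were more than 250 bp apart. The next site, 11188 bp after the third start, had H3K4me1 at 92.1 to 97.2, POLIIS2P in all 3 libraries and H3K27ac in 3 of 6. H3K27ac at ESRRB was present in every library, with highest values of 64.1 and 70.5 in shLUC and 26.2 to 79.8 in shHNRNPU libraries.

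TFCP2L1, a factor of the grainyhead-like family, departed from the other factors. It had the lowest H3K4me1 values of the 10, with 65.3 and 53.5 in shLUC, 59.4 and 63.9 in shHNRNPU#1 and 42.8 and 48.1 in shHNRNPU#2 libraries, and 1 recurrent site. Its H3K27ac values were 61.7 and 71.1 in shLUC, 70.6 and 73.9 in shHNRNPU#1 and 72.0 and 55.7 in shHNRNPU#2 libraries. An H3K27ac site 24548 bp after its start was found in 5 of 6 libraries, and an HNRNPU site of both repeats lay within 500 bp of it. No shLUC H3K4me1 summit was found there, though 3 of 4 shHNRNPU libraries had one.

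**Figure D3:**
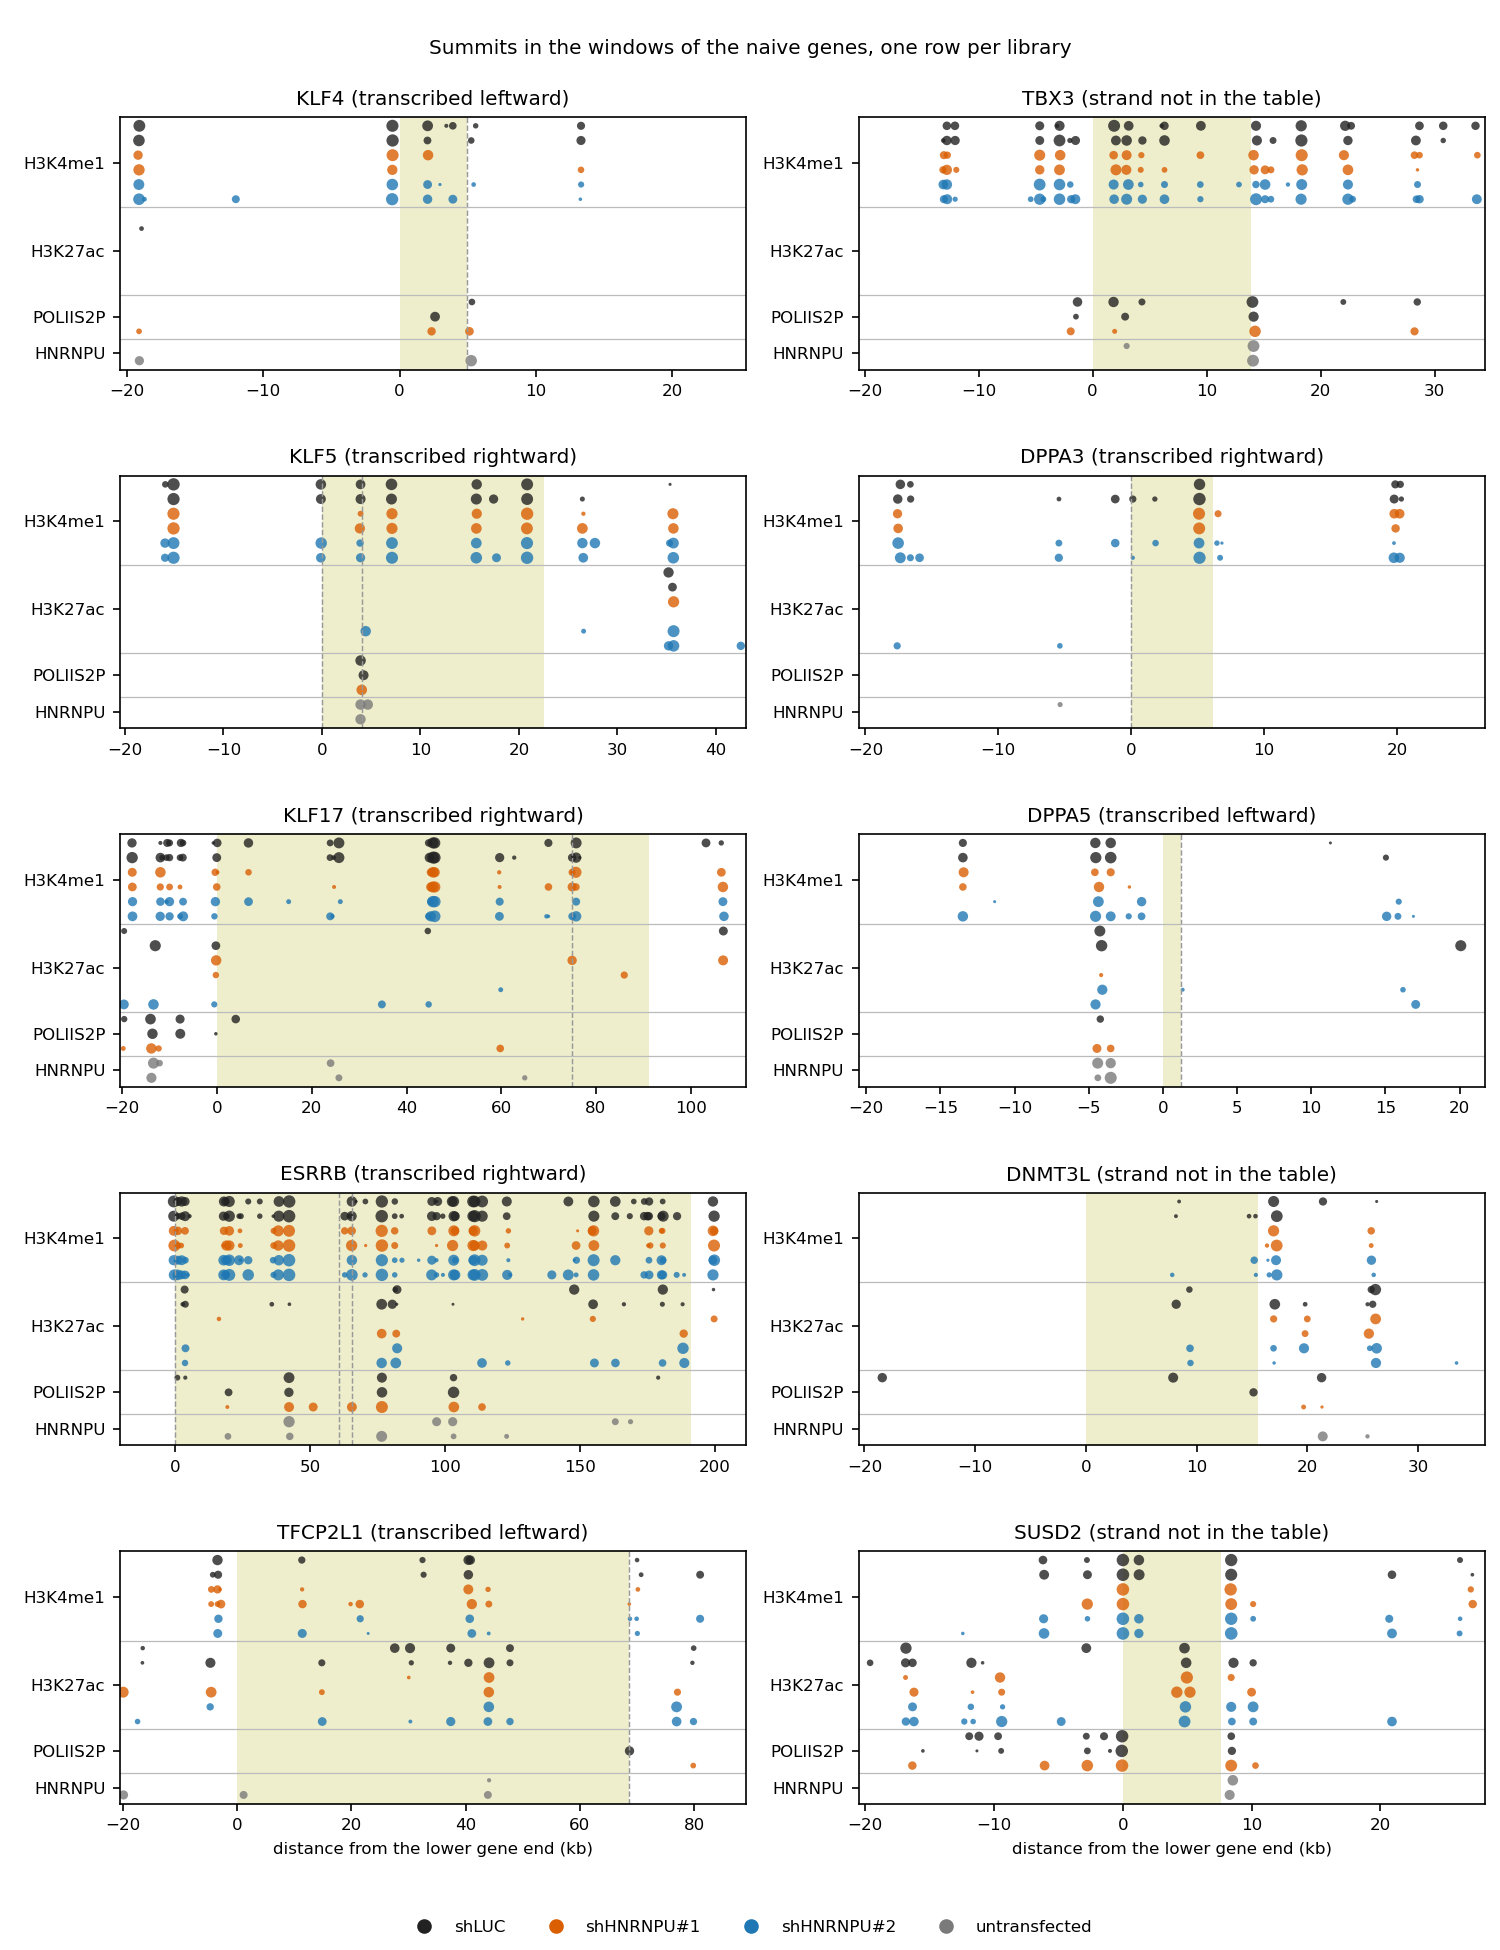
Every summit in the window of each naive gene, placed by its distance in kb from the gene's lower end, with 1 row per library grouped by antibody. Point size grows with the percentile within the list, shading marks the gene and dashed lines the starts in the promoter table. Of the H3K4me1 sites, 42 of 194 were present in all 6 libraries, and of the H3K27ac sites 2 of 77. In the windows of all protein-coding genes these were 59276 of 226051 and 11529 of 134724. The POLIIS2P summits of KLF5 fall on its second start.

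DPPA3, which protects maternal chromatin from DNA methylation change, had 3 recurrent H3K4me1 sites. The strongest lay 5125 bp after its start, within the gene, at percentile 80.4 and 96.0 in shLUC, 89.9 and 88.0 in shHNRNPU#1 and 70.7 and 92.8 in shHNRNPU#2 libraries. H3K27ac was found in its window in shHNRNPU#2 repeat 2 alone, at percentile 28.6. In shLUC cells DPPA3 had this H3K4me1 site with neither H3K27ac nor POLIIS2P in its window.

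At DPPA5, a small RNA-binding protein gene of 1214 bp, no antibody had a start summit in more than 1 library, and all 4 antibodies had summits near 5 kb after the start. H3K4me1 was there in all 6 libraries (5746 bp after the start, 33.3 to 77.4), H3K27ac in both shLUC libraries, POLIIS2P in 1 of 2, and HNRNPU in both repeats 5611 bp and again 4733 bp after the start. The second HNRNPU summit was at base 73349543 in both repeats, at percentile 64.2 and 89.8, and the same base was the summit in 6 libraries of the H3K4me1 and HNRNPU antibodies.

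DNMT3L, a catalytically inactive partner of the de novo DNA methyltransferases, had 1 recurrent H3K4me1 site 1655 bp beyond its upper end, at 74.9 and 85.0 in shLUC and 59.8 to 86.1 in shHNRNPU libraries. It also had 1 of the only 2 H3K27ac sites in the naive windows that were present in all 6 libraries, 10359 bp beyond its upper end. The H3K27ac values there were 79.8 and 29.4 in shLUC, 70.7 and 63.0 in shHNRNPU#1 and 68.1 and 62.8 in shHNRNPU#2 libraries. The groups overlapped.

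SUSD2 held the other. Its H3K27ac site within the gene, 2732 bp before the upper end, had no H3K4me1 summit within 500 bp in any library. At the lower end, the H3K4me1 site of SUSD2 had the highest percentile of the 10 genes, 96.8 and 98.4 in shLUC, 97.9 and 97.7 in shHNRNPU#1 and 98.5 and 99.2 in shHNRNPU#2 libraries, with POLIIS2P in all 3 libraries and no H3K27ac summit within 500 bp in any of 6. A second H3K4me1 site 794 bp beyond the upper end, at 87.3 to 99.0, did carry H3K27ac in 4 of 6 libraries, and HNRNPU in both repeats. In 5 of 6 libraries the highest H3K27ac summit of SUSD2 lay within the gene, and in shLUC repeat 1 it lay 16843 bp before the lower end.

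HNRNPU sites, defined as summits of both repeats within 250 bp, were found in the windows of 5 of the 10 naive genes (KLF5, TFCP2L1, TBX3, DPPA5 and SUSD2), against 70.0% of all genes. With repeats up to 500 bp apart it was 7 genes. At KLF4 and DNMT3L an HNRNPU summit was found in the second repeat only, at percentile 81.3 and 59.7, and at DPPA3 in the first only, at 11.9.

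Knockdown of HNRNPU was examined by comparing the highest percentile in each window between the 4 shHNRNPU and the 2 shLUC libraries. A gene was called when the ranges of the groups did not overlap, and each difference was tested with a two-sided exact permutation test. With 4 against 2 libraries there are 15 assignments and the smallest p is 0.0667, so no gene could pass 0.05. For H3K4me1, 0 of the 10 naive genes were called, against 15.3% of all genes tested (7.11% higher and 8.19% lower), and no naive gene had a p below 0.2 before adjustment. Counting summits among the 20000 strongest of each list gave 0 calls as well, against 4.29% of genes (1.93% higher and 2.36% lower). The median difference over the 10 genes was -4.75 percentile points, against -0.23 over all genes. It was not recomputed without either shLUC library, and these differed. Repeat 2 lay above repeat 1 at most of the 10 genes, such as DPPA5 (82.8 against 67.1). It lay below repeat 1 at KLF5 and TFCP2L1 (53.5 against 65.3 at TFCP2L1). KLF4 had a difference of -6.35 (85.9 ± 6.68, SD, n = 4, against 92.3 ± 1.75, n = 2), and the groups overlapped. The count rested on the shLUC libraries: without shLUC repeat 1, 6 naive genes were below the remaining shLUC library, and without shLUC repeat 2, 1 was below it and 2 were above it. Ranges separate more readily with fewer libraries, and the share of all genes called in these settings was not computed.

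For H3K27ac, 9 genes could be compared, TBX3 having no summit. Of these, 2 were called, DPPA5 lower and SUSD2 higher in shHNRNPU cells, against a background of 13.4% of all genes tested (2.08% higher and 11.3% lower). The count was 2 to 4 when 1 library was left out (4 without shLUC repeat 1, with KLF4 and KLF17 also lower), 4 with shHNRNPU#2 alone and 0 with scores of at least 10. The share of all genes called was not computed in these settings, so 13.4% is not their background. DPPA5 had values of 73.4 and 80.1 in shLUC cells, 0 and 5.57 in shHNRNPU#1 cells and 63.4 and 62.6 in shHNRNPU#2 cells. Both shHNRNPU#1 libraries were far below and both shHNRNPU#2 libraries a little below the controls, a difference of -43.8 percentile points (32.9 ± 34.9, n = 4, against 76.8 ± 4.74, n = 2, exact permutation p = 0.133, adjusted over all genes 0.997). Among the 20000 strongest summits of each list, DPPA5 had 1 in each shLUC library and 0 in each shHNRNPU library (exact permutation p = 0.0667, adjusted 1), and 4.38% of all genes were called in this measure (1.58% higher and 2.81% lower). The shLUC summits ranked 16612 and 18092 from the strongest of their lists. The best shHNRNPU summits, both in shHNRNPU#2 libraries, ranked 27538 and 31818. Restricted to summits with a score of at least 10, or to the 10000 strongest, DPPA5 had none in either group and was not called. With windows of 50 kb each side it was not called in either measure.

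SUSD2 had values of 78.8 and 67.7 in shLUC cells, 92.3 and 79.8 in shHNRNPU#1 cells and 80.5 and 85.7 in shHNRNPU#2 cells. The lowest shHNRNPU library was 1 percentile point above the highest control, and the mean difference was 11.3 (84.6 ± 5.80, n = 4, against 73.3 ± 7.87, n = 2, exact permutation p = 0.133, adjusted 0.997). The highest control value came from the summit outside the gene. At the site within the gene the values were 69.1 and 67.7 in shLUC cells and 92.3, 78.4, 80.5 and 85.7 in shHNRNPU cells. Most of these are the summits that gave the gene values, so the site is not separate evidence. The share of all sites whose groups do not overlap was not computed. With a window of 50 kb each side or with ranks on a log10 scale SUSD2 was no longer called. Taking the antibodies as titled, its difference became -13.0.

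Of the other members, KLF5 had H3K27ac values of 64.4 and 45.1 in shLUC cells and 77.9, 0, 89.0 and 81.6 in shHNRNPU cells, so that 3 libraries lay above the controls and shHNRNPU#1 repeat 2 had no summit. The differences were 7.31 for KLF5, -18.7 for KLF17, -9.39 for ESRRB, 1.66 for TFCP2L1, -8.31 for DNMT3L, -4.48 for KLF4 and 7.15 for DPPA3, all with overlapping groups. The median difference over the 9 genes was -4.48, against -3.20 over all genes. The shHNRNPU#1 H3K27ac lists were the shortest (51655 and 40487 summits, against 62449 and 90914 in shLUC cells), and the part of list length in these values was not tested beyond the use of equal numbers of summits. A setting with the 40000 strongest summits of each list kept the percentiles of the full lists. Every summit behind the calls of DPPA5 and SUSD2 ranked within 40000, so this setting could not change them.

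**Figure D4:**
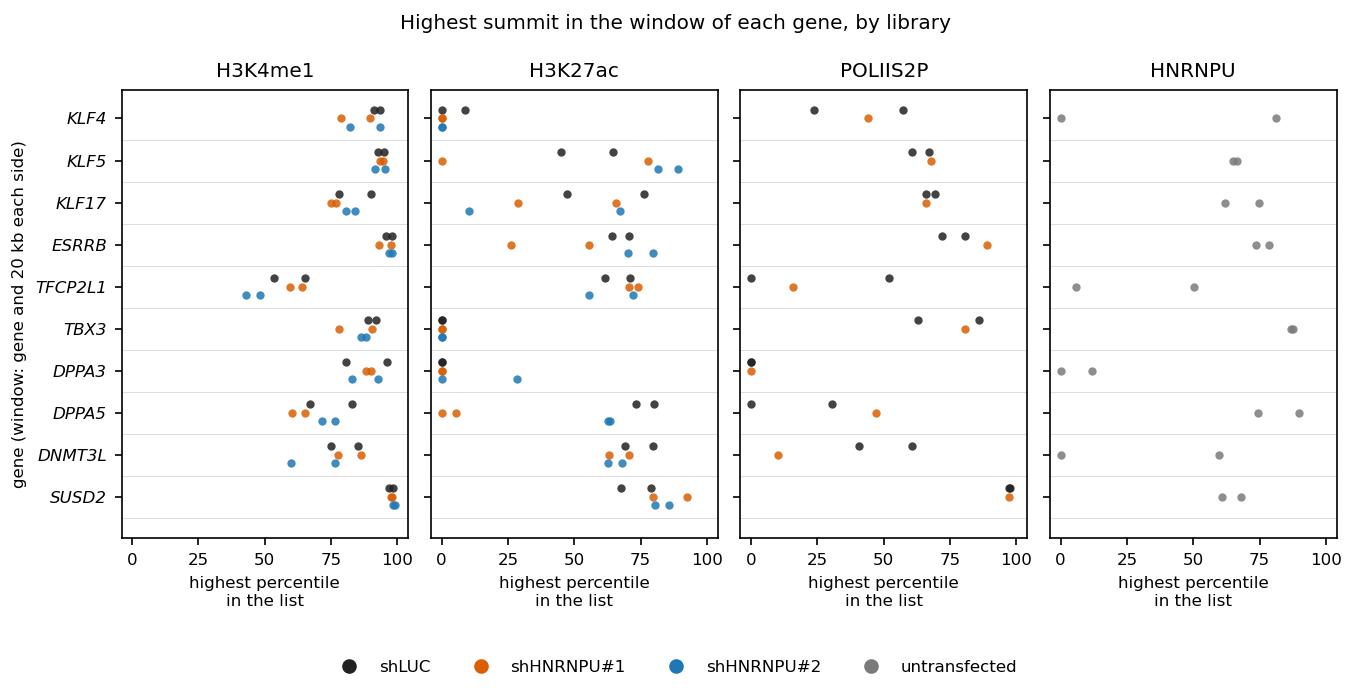
Highest percentile of any summit in the window of each naive gene, 1 point per library, by antibody (panels). Points are set at 0 where a library has no summit. The shLUC and shHNRNPU points overlap for every gene in H3K4me1; in H3K27ac they are apart for DPPA5 (shLUC at 73.4 and 80.1, shHNRNPU at most 63.4) and, narrowly, for SUSD2.

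Site by site, 1 of 15 strong H3K4me1 sites and 1 of 13 strong H3K27ac sites in the naive windows were found in every library of 1 condition and in no library of the other, against 2.54% and 1.98% of such sites at all genes. The H3K4me1 site was in KLF5, 16790 bp after the second start, and was among the 20000 strongest in all 4 shHNRNPU libraries and in neither shLUC library. Over all summits it was present in every library, at percentile 88.2 and 87.5 in shLUC cells and 94.7, 87.2, 91.6 and 95.3 in shHNRNPU cells, and the limit of the 20000 strongest stood at percentile 86.4 to 90.7 of these lists. The H3K27ac site was that of DPPA5, 5406 bp after the start, which lies also in the window of KHDC3L, an oocyte and naive-associated gene.

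With 1 shHNRNPU#1 library, POLIIS2P allows no test. KLF5, ESRRB and DPPA5 were above the range of the 2 shLUC libraries and DNMT3L and SUSD2 below it, 5 of the 9 genes with a summit, against 71.6% of all genes (32.1% above and 39.5% below). DNMT3L had 60.7 and 40.7 in shLUC cells and 10.0 in shHNRNPU#1 cells, DPPA5 30.4 and 0 against 47.3, and ESRRB 72.0 and 80.6 against 88.9. SUSD2 had 97.2 and 97.6 against 97.1, and KLF5 67.0 and 60.6 against 68.0. With windows of 50 kb each side DPPA5 was below and SUSD2 above the shLUC range.

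The windows of 5 naive genes held ends of 8 other protein-coding genes, and a summit there cannot be assigned to either. SLC6A9 and KLF18 lay beside KLF17, GDF3 and CLEC4C beside DPPA3, KHDC3L and OOEP beside DPPA5, ICOSLG beside DNMT3L and CABIN1 beside SUSD2. KHDC3L had the same H3K27ac values as DPPA5 (76.8 in shLUC and 32.9 in shHNRNPU cells on average). SLC6A9 was called lower in H3K4me1 by -1.15 percentile points, and the other 6 were called in neither mark. The POLIIS2P and HNRNPU summits of KLF17 around 88779 bp before its start fell within SLC6A9. Near them lay its highest H3K27ac summits in shLUC repeat 2 (76.2, 87948 bp before the start) and shHNRNPU#2 repeat 2 (67.3, 88325 bp). Both values enter the H3K27ac difference given for KLF17.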

How the data were processed

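CUT&Tag was performed by the authors on H1 cells, and the deposited files are 17 lists of peak summits, 1 per library. Column 5 of each list was read as the −log10 of a p-value or q-value that the authors' peak caller gave to a peak, since the lists have the layout of MACS2 summit files and begin at round levels. The labels' processing notes name cutadapt, Bowtie2, SAMtools, MACS2, deepTools and build hg38, with no versions. A further deposited list holds 48095 HNRNPU intervals of 400 bp with a score of 0 and was used for positions only. The paper given for the series describes mouse cells and not these libraries, so its methods were not used.

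Column 5 was turned into a percentile within its list, and the highest in each gene's window (20 kb each side; 0 without a summit) was compared between shHNRNPU and shLUC libraries with a two-sided exact permutation test over 15 assignments, adjusted by Benjamini-Hochberg over all genes tested (Python 3 with numpy, pandas and scipy). No unit was a count, and read depth is unknown. The antibody of the 4 shLUC histone libraries was taken from the list names. Between 2.15% and 8.70% of summits fell on an identical base in the other repeat, so no list was a duplicate. Gene positions came from RefSeq GRCh38.p14, with starts and strand for 79.1% of coding genes. The genes and lists were chosen with earlier results of these data known. Named were all 10 members, coding genes with an end in a member window, and at most 4 genes from each other list with the largest difference among those whose groups do not overlap. Alternatives covered antibody names, window size, list length, score limits, repeat pairing and leaving out each library.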

Additional observations from a re-analysis of the deposited data

Results flagged for a closer look

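Among 20 groups of 4 shHNRNPU libraries (10 genes and 2 histone antibodies), 2 had a library set apart from the other 3 by Dixon's 95% criterion. The usual chance rate of 5% of groups does not apply, because values were set at 0 without a summit. Beside 3 libraries at 0, any value above 0 is flagged whatever its size, as at DPPA3. A group of 4 libraries at 0, as at KLF4 and TBX3 in H3K27ac, cannot be flagged. KLF5 in H3K27ac had a highest percentile of 0 in shHNRNPU#1 repeat 2, which had no summit in the window, while the other 3 lay at 77.9 to 89.0. That library also had the shortest H3K27ac list, 40487 summits, and the part of list length was not tested. DPPA3 in H3K27ac had 28.6 in shHNRNPU#2 repeat 2 and 0 in the other 3. That library had the longest shHNRNPU H3K27ac list, 85142 summits.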

How the results depend on the processing

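Of 118 recomputed counts and shares, 69 stayed close to the value reported (counts within 1.5 times, shares within their interval). For counts of called genes and of condition-specific sites, the share over all genes was not computed in the altered settings. The shares given above are therefore not their background, and ranges separate more readily with fewer libraries. Taking the antibodies of the shLUC libraries as titled changed most results: 6 naive genes were called in H3K4me1 and 9 in H3K27ac by highest percentile, 3 and 2 by number of strongest summits, start summits were found at 0 (H3K4me1) and 6 (H3K27ac), condition-specific sites numbered 6 for each mark, 66.7% of recurrent H3K4me1 sites (2 of 3) carried H3K27ac, and the H3K27ac difference of SUSD2 turned to -13.0. By highest percentile, the H3K4me1 count was 1 with 50 kb windows, 3 with shHNRNPU#1 alone, 3 with shHNRNPU#2 alone and 0 to 6 leaving out 1 library. The H3K27ac count was 1 with 50 kb windows, 4 with shHNRNPU#2 alone, 1 on log10 ranks, 0 with scores of at least 10 and 2 to 4 leaving out 1 library. By strongest summits, H3K4me1 gave 1 with 5 kb windows, 1 with shHNRNPU#1 alone, 3 with all summits per 10000 and 0 to 1 leaving out 1 library, and H3K27ac gave 0 with 50 kb windows, 2 with either shRNA alone, 0 with the 10000 strongest, 0 with all summits per 10000 and 1 to 2 leaving out 1 library. Condition-specific sites numbered 7 (H3K4me1) and 2 (H3K27ac) with all summits, 0 with the 10000 strongest, and 1 to 3 and 1 to 2 leaving out 1 library. Among the 20000 strongest summits, start summits were at 1 gene for H3K4me1 and 1 for POLIIS2P. HNRNPU occurred at 10 genes by the interval list and at 8 to 9 in a single repeat. The share of recurrent H3K4me1 sites with H3K27ac was 4.26% to 19.0% leaving out 1 library and 0% requiring all 4 shHNRNPU H3K27ac libraries. The POLIIS2P median difference over the 9 naive genes with a summit was 3.45, and 0.129 without shLUC repeat 1 and 1.00 without shLUC repeat 2. The cause of these changes was not tested. The equal-length, mark-distance and shHNRNPU-only settings of the shared-site result were chosen after seeing the data.

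Same-numbered repeats did not deviate together (correlations of -0.022 to 0.026 over all genes), so the numbers were not taken as pairs. With the replicate block, 1 naive gene was called in H3K4me1 (KLF4, lower) and 3 in H3K27ac (DPPA5 and DNMT3L lower, SUSD2 higher), and 0 and 1 by number of strongest summits. The share of all genes called with the block was not computed. No block was fitted for condition-specific sites. The design of 4 against 2 libraries, list lengths that differ and unknown depth limit every comparison.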

Other observations

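Of the 16 other genes associated with naive cells, HORMAD1, a meiotic chromosome protein, was called higher in H3K4me1 in shHNRNPU cells, with a mean highest percentile of 52.7 against 9.92 in shLUC cells (exact permutation p = 0.133, adjusted 0.919). OLAH, a thioesterase, was called lower (34.1 against 54.3, exact permutation p = 0.133), as was NLRP7, an oocyte-expressed NLR family gene (94.4 against 97.9, exact permutation p = 0.2). These 3 of 16 compare with 15.3% of all genes. In H3K27ac, KHDC3L alone of the 16 was called, against 13.4% of all genes, through the summit it shares with DPPA5. The 16 genes had H3K27ac in their windows in every library at 6 (NLRP7, ALPP, ALPG, A4GALT, ST6GAL1 and ZFP42), against 69.7% of all genes. Both shLUC libraries had an H3K27ac start summit at HORMAD1, ALPP, ALPG, DPPA2 and ZFP42.

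All 5 genes of the LIF-STAT3 pathway, which sustains naive cells in the mouse, carried H3K27ac and HNRNPU at their starts in every control library. STAT3 (90.0 in shHNRNPU against 97.0 in shLUC cells) and SOCS3 (84.8 against 95.8) were called lower in H3K27ac, each with exact permutation p = 0.133 and adjusted 0.997. Of the core genes, NANOG was called higher in H3K27ac (88.6 against 76.0, exact permutation p = 0.0667, adjusted 0.997), and L1TD1 (99.74 against 99.85) and SALL4 (92.4 against 98.3) lower. In H3K4me1, SOX2 (98.4 against 98.9) and DNMT3B (99.91 against 99.95) were called lower and LHX2, a neural marker, higher (95.6 against 89.3). These were 2 of 5 LIF-STAT3 and 3 of 8 core genes in H3K27ac, against 13.4% of all genes. In H3K4me1 they were 0 of 5 and 1 of 8, against 15.3%. LHX2 was 1 of 6 neuroectoderm markers called in H3K4me1, and DNMT3B 1 of 10 primed genes. Over all genes, 7.11% were called higher and 8.19% lower in H3K4me1. None of these calls passed an adjusted test.

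Over 22197 starts, 33.3% of those with more CpG than the median and 15.2% of the others had an H3K27ac summit within 1 kb in all 6 libraries. For H3K4me1 the shares were 45.1% and 33.3%. Among the naive genes, TFCP2L1 and KLF4 had CpG-rich starts (32 and 25 CpG) with an H3K27ac summit in 0 of 6 libraries. KLF5 start 2 (27 CpG) and the DPPA5 start (19 CpG) were also above the median, each with an H3K27ac summit in 1 of 6 libraries.

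The deposited list of HNRNPU intervals had at least 1 interval in the window of all 10 naive genes, as it had at 88.2% of all genes. The list is longer than the set of sites found in both repeats (48095 intervals against 17226 sites).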
